A study of Mus musculus with 9 samples.

Results

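The 9 genes described here encode the machinery of MHC class II antigen presentation in the mouse: H2-Aa, H2-Ab1, H2-Eb1, Cd74, Ciita, H2-DMa, H2-DMb1, H2-DMb2 and H2-Oa. They were taken by gene symbol from the 53801 genes counted in RNA-seq of CD11b+ cells sorted from mouse brains bearing GL261 gliomas, and all 9 were found. Of them 7 lie in the MHC region of chromosome 17 (GRCm38), between base 34092340, where H2-Oa starts, and base 34316674, where H2-Eb1 ends. Ciita lies on chromosome 16 (bases 10480059 to 10528418) and Cd74 on chromosome 18 (bases 60803848 to 60812652).

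All libraries came from C57BL/6J mice, males of 10 to 12 weeks, in which GL261 glioma cells carrying luciferase and tdTomato had been placed in the right striatum. Control mice (CTR, 2 libraries) received saline by gavage. The other groups received OAT-1746, an arginase inhibitor, at 50 mg/kg by gavage in repeated daily doses from day 1 (2 libraries), an antibody against PD-1 at 2.5 mg/kg from day 8 to day 14 (anti-PD-1, 2 libraries), or both agents (COMB, 3 libraries). The methods give day 28 after implantation for the collection of the cells and a legend gives day 21. For replicate 2 of the anti-PD-1 group the label of the agent reads anti-PD-2, and its title placed it in that group. The methods call the libraries biological replicates. GL261 is a transplanted cell line, and the sort selected cells by surface CD11b alone, so that each library mixes microglia, monocytes, macrophages and any other CD11b+ cell.

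MHC class II molecules present peptides from endocytosed proteins to CD4+ T cells. An α and a β chain assemble in the endoplasmic reticulum around the invariant chain Cd74, which is degraded in endosomes down to a fragment that H2-DM exchanges for antigenic peptides and whose exchange H2-O restrains. Transcription of class II genes depends on Ciita, a coactivator without DNA binding of its own. It is recruited by RFX, CREB and NF-Y proteins at conserved promoter elements. In the brain, resting microglia carry little class II, and activated microglia, macrophages and dendritic cells carry more.

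Between 13048075 and 18796479 read pairs were counted on genes in each library. Levels are given as CPM, counts scaled to a common library size with TMM normalisation factors. OAT-1746 replicate 2 stood apart from the other libraries: over the 12538 protein-coding genes with enough counts to be tested, its log2 CPM correlated with those of the other libraries at a median Pearson r of 0.927, against medians of 0.970 to 0.979 for the rest. Calls by edgeR that rest on the OAT-1746 group are therefore given with and without this library. The sorted population carried the transcripts of myeloid cells in every library, with Itgam, which encodes CD11b, between 294 and 446 CPM and Csf1r, the receptor for CSF1, between 6299 and 11551 CPM.

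The class II genes took a large share of the RNA. Together the 9 genes held 3.47% and 2.01% of all counts in the CTR libraries and 1.15% and 1.01% in the OAT-1746 libraries. They held 1.71% and 2.19% in anti-PD-1, and 1.75%, 3.20% and 3.16% in COMB. Both OAT-1746 libraries lay below the other 7, CTR replicate 1 was the highest, and COMB replicate 1 lay about as low as anti-PD-1 replicate 1.

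Levels of different genes were compared as CPM per kilobase of annotated exon, averaged over the 9 libraries. Cd74 had 4982 CPM per kilobase (SD 2119), which placed it at rank 5 of the 12538 tested genes. The chains followed with 2116 for H2-Ab1 (SD 1011), 1616 for H2-Eb1 (SD 718) and 1181 for H2-Aa (SD 547), at ranks 18, 21 and 30. The peptide-exchange subunits were lower, at 223 for H2-DMb1 (SD 94.6) and 158 for H2-DMa (SD 42.2), then H2-Oa at 38.8 (SD 11.6), H2-DMb2 at 18.98 (SD 5.06) and Ciita at 13.2 (SD 5.80). Within single libraries this order of neighbours held in 9 of 9 libraries except for H2-DMb1 over H2-DMa and for H2-DMb2 over Ciita, which held in 8 of 9 each. Only the steps from H2-Aa to H2-DMb1 and from H2-DMa to H2-Oa separated the ranges of 2 neighbours over all libraries.

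Promoters of the members are shown as a description, since class II transcription relies on conserved promoter elements. Promoter entries of RefSeq (GRCm38.p6, from 250 bases before to 50 after a start site) were found for 6 members, with 2 entries for H2-DMa; H2-Ab1, Ciita and Cd74 had none. The Y box core searched for was ATTGG or its reverse complement CCAAT, which 6 of the 7 entries held, against 37.4% of the 32851 promoters in the table. A second set of letters, GNAAC, and its distance from ATTGG were taken from these same sequences after they had been seen, so the counts that follow are no test. It stood 27 or 28 bases ahead of ATTGG in the entries of H2-Aa, H2-Eb1, H2-DMb1 and H2-Oa, an arrangement that 0.39% of all promoters held on either strand. The stretches below show this spacing, and the H2-DMb2 stretch lets the promoters of the paralogues be compared. Each is read along the gene's own strand, with ATTGG and, where present, GNAAC in capitals.
H2-Aa, chr17:34287847-34287916, minus strand: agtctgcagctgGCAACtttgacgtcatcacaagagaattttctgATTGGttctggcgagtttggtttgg
H2-Eb1, chr17:34305763-34305832, plus strand: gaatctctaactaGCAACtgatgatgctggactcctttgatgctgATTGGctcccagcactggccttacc
H2-DMb1, chr17:34153085-34153154, plus strand: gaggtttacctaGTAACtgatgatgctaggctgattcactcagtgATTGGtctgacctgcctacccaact
H2-DMb2, chr17:34145114-34145183, plus strand: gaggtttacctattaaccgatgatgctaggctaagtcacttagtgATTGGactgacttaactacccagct
H2-Oa, chr17:34092291-34092360, plus strand: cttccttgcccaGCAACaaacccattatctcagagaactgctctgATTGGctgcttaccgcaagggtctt

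Counted from the start sites of RefSeq, the stretches end between 19 bases upstream, in H2-Oa, and 66 bases upstream, in H2-DMb2. The gene models used for counting start elsewhere, at base 34092340 for H2-Oa, 34143307 for H2-DMb2 and 34153072 for H2-DMb1, so that the stretch of H2-Oa reaches past that start and those of H2-DMb2 and H2-DMb1 lie inside the gene models. Of the H2-DMa entries, the first held no ATTGG or CCAAT. The second held ATTGG, with no GNAAC ahead of it in a stretch of 70 bases that began 243 bases before its start. H2-Oa carried the same arrangement as H2-Aa and H2-Eb1. Its level followed another course across the libraries, as described further on, and a link between these letters and the levels was not tested. A match of letters is a description of these windows and does not show that a factor binds there.

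The chains that form the peptide-binding molecule were lowest in mice given OAT-1746 alone. H2-Aa, the α chain of I-A, had 6999 and 4015 CPM in CTR, 2099 and 1799 in OAT-1746, 3543 and 4394 in anti-PD-1, and 3455, 7319 and 6738 in COMB. H2-Ab1, its β chain, had 8999 and 5366 CPM in CTR, 2845 and 1900 in OAT-1746, 3793 and 5361 in anti-PD-1, and 3944, 8648 and 8045 in COMB. In both genes each OAT-1746 library lay below the 7 libraries of the other groups. For H2-Aa, CTR, anti-PD-1 and COMB overlapped, and for H2-Ab1 anti-PD-1 replicate 2 lay just below the lower CTR library and replicate 1 further below it, with group means of 7183 CPM in CTR (SD 2569, n = 2), 2372 in OAT-1746 (SD 669, n = 2), 4577 in anti-PD-1 (SD 1109, n = 2) and 6879 in COMB (SD 2559, n = 3). H2-Eb1, the β chain of I-E, had 5144 and 2905 CPM in CTR, 1443 and 1326 in OAT-1746, 2552 and 3226 in anti-PD-1, and 2421, 4714 and 4549 in COMB. C57BL/6 mice lack a functional partner chain for it, and the I-E α pseudogene H2-Ea-ps had no count in 8 libraries and 1 count in COMB replicate 3. H2-Eb2, a further β chain gene, had between 4 and 37 counts per library.

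Cd74, the invariant chain that shields the groove until the endosome, had 13815 and 7615 CPM in CTR, 4426 and 3999.5 in OAT-1746, 6278 and 8991 in anti-PD-1, and 6138, 11748 and 12277 in COMB. As in the chains, both OAT-1746 libraries lay below all others. A microRNA gene, Mir5107, overlaps Cd74 on the same strand.

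Ciita, the coactivator of class II transcription, had 223 and 93.5 CPM in CTR, 73.5 and 52.8 in OAT-1746, 114 and 188 in anti-PD-1, and 100, 127 and 162 in COMB. Its OAT-1746 libraries were again the lowest, but its CTR libraries differed from each other by a larger fold than those of any other member and spanned the anti-PD-1 and COMB libraries. Per kilobase, Ciita stood between 0.395% and 0.943% of the level of H2-Ab1.

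H2-DM is built from an α and a β subunit, the latter encoded by a pair of genes. H2-DMa, the α subunit, had 667 and 535 CPM in CTR, 416 and 354 in OAT-1746, 441 and 535 in anti-PD-1, and 453, 764 and 729 in COMB. H2-DMb1, the more abundant β subunit, had 507 and 367 CPM in CTR, 227 and 132 in OAT-1746, 273 and 413 in anti-PD-1, and 301, 615 and 544 in COMB. H2-DMb2, the other β subunit, had 46.1 and 30.9 CPM in CTR, 21.7 and 20.8 in OAT-1746, 33.8 and 31.2 in anti-PD-1, and 30.0, 41.8 and 42.1 in COMB. In all of these subunits the OAT-1746 libraries were the lowest of the 9. The best-aligned pair of annotated transcripts of the β subunit genes is 83.1% identical over 1413 positions. All protein-coding transcripts of each gene, pooled, share 369 different stretches of 50 bases with those of the other, and since reads of low mapping quality were not counted, reads that fit both genes may be missing from either level.

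H2-Oa, the α subunit of the H2-DM inhibitor H2-O, did not follow the others. It had 54.8 and 43.1 CPM in CTR, 38.5 and 79.2 in OAT-1746, 60.6 and 28.4 in anti-PD-1, and 49.8, 69.2 and 67.8 in COMB. Its highest value was in OAT-1746 replicate 2, the library in which H2-Aa, H2-Ab1, H2-Eb1 and Cd74 were at their lowest, and its lowest in anti-PD-1 replicate 2. H2-Ob, the β subunit of the same inhibitor, had 28.9 and 30.6 CPM in CTR, 37.2 and 54.9 in OAT-1746, 38.7 and 26.5 in anti-PD-1, and 37.5, 47.6 and 46.6 in COMB. Both subunits of H2-O thus had their highest value in OAT-1746 replicate 2 and their lowest in anti-PD-1 replicate 2.

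**Figure D1:**
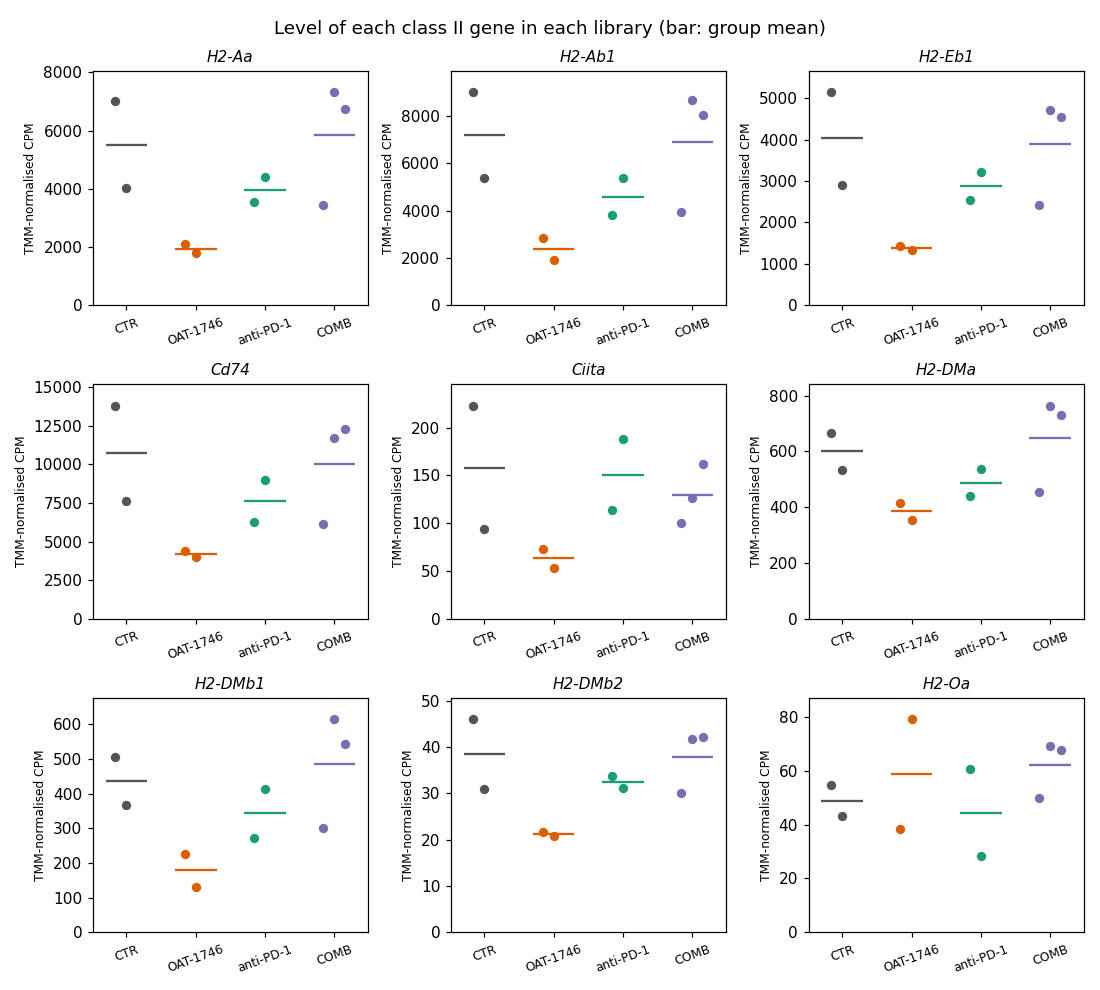
TMM-normalised CPM (vertical axes, from 0) of each of the 9 class II genes in each library, with 1 point per library in replicate order, and the group mean as a bar. Both OAT-1746 libraries lie below both CTR libraries in 8 genes, as they do in 32.1% of all tested genes. They are also the lowest of all libraries in these 8, a rule whose share of all genes was not counted. H2-Oa is the exception, with 38.5 and 79.2 CPM in OAT-1746.

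The effect of arginase inhibition alone was addressed by comparing OAT-1746 with CTR. The 3 chains had fitted levels 2.83-fold (H2-Aa), 3.03-fold (H2-Ab1) and 2.91-fold (H2-Eb1) lower in OAT-1746, Cd74 was 2.54-fold lower and Ciita 2.51-fold lower. None of the 9 genes passed the test: edgeR's quasi-likelihood test with Benjamini-Hochberg adjustment over all tested genes gave 0 of 9 with an adjusted p under 0.05, as it gave 0.00% of all 12538 genes. On the log2 scale the change was -1.54 for H2-Eb1 (SE 0.36, 95% interval -2.36 to -0.72, edgeR adjusted p = 0.0628) and -1.60 for H2-Ab1 (SE 0.42, 95% interval -2.54 to -0.66, edgeR adjusted p = 0.0697). It was -1.33 for Ciita (SE 0.42, edgeR adjusted p = 0.0825) and -0.64 for H2-DMa (SE 0.26, edgeR adjusted p = 0.134), the smallest of the 8 decreases. When each library was left out, the value ran from -1.82 to -0.57 for Ciita, from -1.71 to -0.85 for Cd74 and from -1.12 to -0.54 for H2-DMb2. H2-Oa had a log2 change of 0.27 (SE 0.40, 95% interval -0.63 to 1.16).

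At an unadjusted p under 0.05, 8 of the 9 genes were lower in OAT-1746, against 16.2% of all genes that were lower by that rule, and the same 8 had both OAT-1746 libraries below both CTR libraries, against 32.1% of all genes. DESeq2 gave 7 of 9 lower with an adjusted p under 0.05, against 7.37% of all genes, and limma voom with sample quality weights gave 0 of 9, against 0.00%. The median log2 fold change of the 9 genes was -1.33, and that of all tested genes 0.01. Without OAT-1746 replicate 2, 6 of 9 had an unadjusted p under 0.05 and the median was -1.09, with 6.72% of all genes lower by that rule. Without OAT-1746 replicate 1, 6 had an adjusted p under 0.05 in edgeR, where 29.1% of all genes did. Without CTR replicate 1, the median was -0.85 and 3 of 9 were lower at an unadjusted p under 0.05, against 7.59% of all genes, and without CTR replicate 2 the median was -1.71 and 8 of 9 were lower, against 11.2%. Without COMB replicate 1, which is in neither group but shapes the shared spread, 3 had an adjusted p under 0.05, where 2.22% of all genes did. In each fit that leaves a group with 1 library, that library is assumed to vary like the other groups. H2-Oa turned its direction without OAT-1746 replicate 2, from 0.27 to -0.33. In bulk RNA of sorted cells, fewer class II bearing cells and less class II RNA per cell cannot be told apart.

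Anti-PD-1 against CTR addressed checkpoint blockade alone. Log2 fold changes ran from -0.65 for H2-Ab1 (SE 0.41, 95% interval -1.57 to 0.27, edgeR adjusted p = 0.967) to -0.07 for Ciita (SE 0.41, 95% interval -0.99 to 0.85). All 9 values were below 0, and 0 of 9 passed the adjusted test in edgeR (0.00% of all genes), in DESeq2 (0.112%) or in limma voom (0.00%), or had an unadjusted p under 0.05 in edgeR (5.12%). The median of the members was -0.35, against 0.02 for all genes, and that of the members ran from -0.65 to -0.008 when each library was left out. Without CTR replicate 1, the values of Cd74, Ciita, H2-DMb2 and H2-Oa were above 0.

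COMB against CTR gave values on both sides of 0, from -0.29 for Ciita (SE 0.37, 95% interval -1.12 to 0.55) to 0.35 for H2-Oa (SE 0.37, 95% interval -0.48 to 1.17). Among the chains, H2-Ab1 had -0.06 (SE 0.37, 95% interval -0.90 to 0.77) and H2-Aa 0.08 (SE 0.34, 95% interval -0.68 to 0.85). No member passed the adjusted test in edgeR (0 of 9, 0.00% of all genes), DESeq2 (0 of 9, 0.279%) or limma voom (0 of 9, 0.0160%), and none had an unadjusted p under 0.05 in edgeR (6.58%). The median was -0.02 and that of all genes also near 0, at -0.005. These comparisons share the CTR libraries, which for Cd74 had 13815 and 7615 CPM, and so are not independent.

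Adding the antibody to OAT-1746 was addressed by COMB against OAT-1746. Of the comparisons made with edgeR, this was the one in which class II genes passed the test. It shares the OAT-1746 libraries with OAT-1746 against CTR and with the interaction below, so these results are not independent. H2-Aa rose by 1.58 on the log2 scale (SE 0.36, 95% interval 0.77 to 2.39, edgeR adjusted p = 0.0302), H2-Eb1 by 1.49 (SE 0.34, edgeR adjusted p = 0.0308) and H2-Ab1 by 1.54 (SE 0.39, edgeR adjusted p = 0.0371). H2-DMb1 rose by 1.44 (SE 0.37, edgeR adjusted p = 0.0371), H2-DMb2 by 0.84 (SE 0.21, edgeR adjusted p = 0.0374) and Cd74 by 1.26 (SE 0.36, edgeR adjusted p = 0.0474). In each of these 6 genes all 3 COMB libraries lay above both OAT-1746 libraries. H2-DMa had a value of 0.75 (SE 0.25, edgeR adjusted p = 0.0638) and Ciita one of 1.04 (SE 0.39, edgeR adjusted p = 0.0880), both also without overlap of the libraries and neither past the threshold. H2-Oa had 0.08 (SE 0.36, 95% interval -0.74 to 0.90).

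So 6 of 9 members were called higher, against 6.84% of all genes, and 8 of 9 had an unadjusted p under 0.05 and higher levels, against 18.3%. No overlap in that direction was found for 8 of 9, against 25.0%. DESeq2 called 8 of 9 higher (13.2% of all genes) and limma voom 7 of 9 (10.8%). The median log2 fold change was 1.26 in the members and 0.003 in all genes. The 6 calls depended on single libraries: without OAT-1746 replicate 2 none remained among the 9 and the median was 1.08, with 0.215% of all genes called, and 6 of 9 were higher at an unadjusted p under 0.05, against 9.40% of all genes. Leaving out anti-PD-1 replicate 1 or 2 also gave 0 calls among the 9, with 5.31% and 5.26% of all genes called. Without COMB replicate 2 or 3 there were 0 as well, with 0.112% and 0.00798% of all genes called, and without CTR replicate 1 or 2 there were 3, with 6.76% and 6.74%. The fit of only the groups compared gave 0 calls, as did that with the replicate number as a block, with 30 and 2 calls among all genes.

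COMB against anti-PD-1 addressed the addition of OAT-1746 to the antibody. The value was above 0 in 8 of 9 genes and below it in Ciita, at -0.22 (SE 0.37, 95% interval -1.06 to 0.62). H2-Ab1 had 0.59 (SE 0.38, 95% interval -0.26 to 1.44, edgeR adjusted p = 0.768) and H2-DMa 0.41 (SE 0.24, 95% interval -0.14 to 0.96). In edgeR 0 of 9 had an adjusted p under 0.05 (0.00% of all genes) and 0 of 9 an unadjusted one (7.23%), in DESeq2 0 of 9 an adjusted p under 0.05 (0.375%) and in limma voom 0 of 9 (0.279%). The median was 0.43, against -0.01 for all genes. Without COMB replicate 1, 5 of 9 had an unadjusted p under 0.05, against 10.3% of all genes, and without anti-PD-1 replicate 1, 1 of 9 had, against 7.19%.

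Whether OAT-1746 acted differently with and without the antibody was tested by the interaction, computed as COMB over anti-PD-1 less OAT-1746 over CTR on the log2 scale. The interaction was 2.19 for H2-Ab1 (SE 0.56, 95% interval 0.92 to 3.46, edgeR adjusted p = 0.0958), 2.06 for H2-Aa (SE 0.51, edgeR adjusted p = 0.0953) and 1.97 for H2-Eb1 (SE 0.49, edgeR adjusted p = 0.0951). It was 1.11 for Ciita (SE 0.56, edgeR adjusted p = 0.235) and 0.22 for H2-Oa (SE 0.54). The Ciita value ran from 0.35 to 1.60 when each library was left out. edgeR called 0 of 9 (0.359% of all genes), with 7 of 9 at an unadjusted p under 0.05 and a positive value (11.8%). DESeq2 called 7 of 9 with a positive value (3.61%) and limma voom 3 of 9 (0.686%). The median was 1.74, against -0.02 for all genes. Without OAT-1746 replicate 2 the count at an unadjusted p under 0.05 was again 7 of 9, against 8.46% of all genes with a positive value. Without OAT-1746 replicate 1 or COMB replicate 1 edgeR called 4 and 5 of the 9, where it called 22.0% and 3.34% of all genes.

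**Figure D2:**
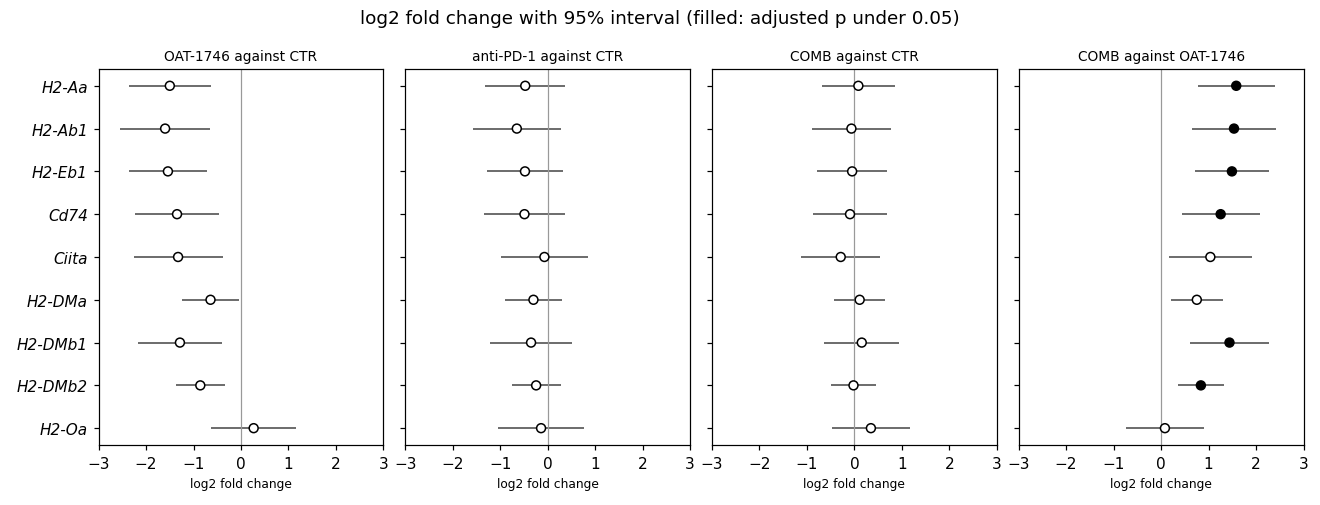
Fitted log2 fold changes (horizontal axes) of the 9 genes in 4 comparisons, with 95% intervals as bars and filled points where the edgeR adjusted p was under 0.05. Filled points appear in COMB against OAT-1746 alone, for 6 of the 9 genes, and 8 of the intervals of OAT-1746 against CTR lie below 0.

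Ratios within a library do not depend on its depth and show which members moved together. H2-Aa stood at 0.50 to 0.64 of H2-Ab1 per kilobase, H2-Eb1 at 0.67 to 0.92 of H2-Ab1, and H2-Ab1 at 0.31 to 0.48 of Cd74. The highest and lowest of the 9 libraries thus differed 1.28-fold, 1.38-fold and 1.55-fold in these ratios, while the summed level of the 9 genes went from 9662 to 36455 CPM. The ratio of the H2-DM subunits was less even. H2-DMb1 stood at 1.56 and 1.41 times H2-DMa in CTR, 1.12 and 0.76 in OAT-1746, 1.27 and 1.58 in anti-PD-1, and 1.36, 1.65 and 1.53 in COMB, so that both OAT-1746 libraries were the lowest.

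The ratio of the inhibitor's H2-Oa to H2-DMa, a subunit of its target, had the widest range of the 8 ratios computed. H2-Oa stood at 20.1% and 19.7% of H2-DMa in CTR, 22.7% and 54.8% in OAT-1746, 33.7% and 12.98% in anti-PD-1, and 26.9%, 22.2% and 22.8% in COMB, a range of 4.22-fold. The high value came from OAT-1746 replicate 2 and the low one from anti-PD-1 replicate 2. H2-Ob stood between 13.8% and 25.2% of H2-Oa per kilobase.

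**Figure D3:**
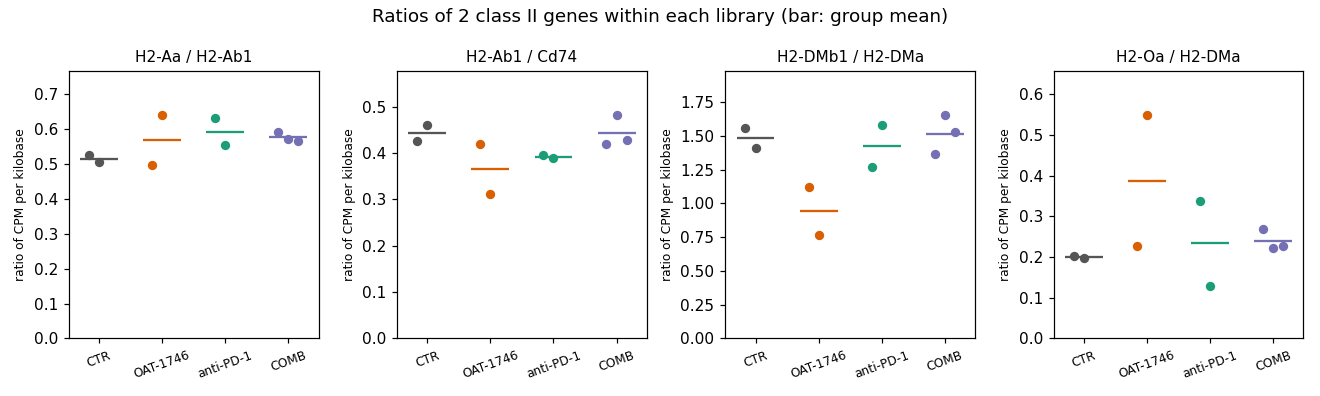
Ratios of CPM per kilobase of 2 class II genes within each library (vertical axes, from 0), with 1 point per library and the group mean as a bar. H2-Aa to H2-Ab1 stays between 0.50 and 0.64, whereas H2-Oa to H2-DMa goes from 0.13 to 0.55.

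The mean centred log2 CPM of H2-Aa, H2-Ab1, H2-Eb1 and Cd74 served as the profile of the class II chains over the 9 libraries, which differ in treatment as well as in chance. It was 0.85 and 0.04 in CTR, -0.87 and -1.14 in OAT-1746, -0.25 and 0.17 in anti-PD-1, and -0.27, 0.76 and 0.71 in COMB. Other members followed it with a Pearson r of 0.969 for H2-DMb1, 0.968 for H2-DMb2, 0.966 for H2-DMa and 0.875 for Ciita (n = 9 libraries), whereas H2-Oa had an r of 0.05, and of 0.48 without OAT-1746 replicate 2. Among tested genes outside the set, the 10 most alike included Fam136a (r of 0.989), Gfer (0.985), Vdac1 (0.976), Gmps (0.976), Tmem150b (0.976), Wdr90 (0.970), Xpnpep1 (0.969), Tcea1 (0.968) and Api5 (0.966). Vdac1 is a pore of the outer mitochondrial membrane and Gmps an enzyme of GMP synthesis. By Spearman's rank correlation 1 of the 10 was among the nearest 10, and without OAT-1746 replicate 2, 4 were.

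Other steps of the pathway were read from gene lists, whose counts stand against those of all genes. Between OAT-1746 and CTR edgeR called 0.00% of all genes, with 16.1% higher and 16.2% lower at an unadjusted p under 0.05, and DESeq2 called 8.36% higher and 7.37% lower. In COMB against OAT-1746 edgeR called 15.8% of all genes, 6.84% higher and 8.94% lower, with 18.3% higher and 18.8% lower at an unadjusted p under 0.05, so a single call in a list of 5 to 12 genes is near the share of all genes. The transcription factors that recruit Ciita (Rfx5, Rfxank, Rfxap, Nfya, Nfyb, Nfyc, Creb1 and Atf1) were all tested, and 0 of 8 passed the adjusted test in edgeR between OAT-1746 and CTR, with 1 higher at an unadjusted p under 0.05 and a median log2 fold change of 0.05. Nfya, a subunit of NF-Y, had 94.7 and 101 CPM in CTR, 140 and 202 in OAT-1746, 120 and 128 in anti-PD-1, and 109, 80.1 and 88.7 in COMB. Its OAT-1746 libraries were the highest of the 9, where those of the class II chains were the lowest. In COMB against OAT-1746 Nfya fell by 0.89 on the log2 scale (SE 0.19, edgeR adjusted p = 0.0275), the 1 call among the 8, against 15.8% of all genes. That value was -0.61 without OAT-1746 replicate 2 (edgeR adjusted p = 0.189). In that fit edgeR called 0 genes of the lists given here and below in either comparison with OAT-1746, and the genes named as past the test kept their sign at an unadjusted p under 0.05.

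Lysosomal processing of antigen and of Cd74 did not share a direction. Of 10 genes listed, 9 were tested, since Ifi30, a thiol reductase, is not annotated as protein-coding in the release used. Their summed level, with Ifi30, stayed between 32355 and 34994 CPM in all libraries. None of the 9 passed the adjusted edgeR test between OAT-1746 and CTR, with 3 lower and 1 higher at an unadjusted p under 0.05, while DESeq2 called 2 lower and 1 higher. Ctss, the protease that trims Cd74 in these cells, had 10614 and 9239 CPM in CTR, 8036 and 7461 in OAT-1746, 7326 and 8483 in anti-PD-1, and 7797, 10184 and 9959 in COMB. Cst3, a secreted inhibitor of such proteases, had 4412 and 6239 CPM in CTR, 9262 and 10976 in OAT-1746, 7898 and 6163 in anti-PD-1, and 7878, 6097 and 5754 in COMB. The OAT-1746 libraries were thus the highest of the 9 for Cst3, and for Ctss they lay below CTR and within the range of the anti-PD-1 libraries. They were the lowest of the 9 for Ctsb (4847 and 3307 CPM), Ctsz (1421.5 and 1016) and Ifi30 (617 and 249). Of the 9 tested genes, 5 had higher and 4 lower fitted levels in OAT-1746 than in CTR. In COMB against OAT-1746, 0 of 9 passed the adjusted edgeR test, with 3 higher and 1 lower at an unadjusted p under 0.05, and DESeq2 called 2 higher. Without OAT-1746 replicate 2, 1 was higher and 0 were lower against CTR at that unadjusted threshold, and 0 passed it in COMB against OAT-1746.

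March1 and March8, ubiquitin ligases that remove class II from the surface, gave 0 of 2 calls in every comparison, with log2 fold changes of 0.16 (SE 0.20) and -0.0005 (SE 0.17) in OAT-1746 against CTR. Of 5 costimulatory or adhesion partners, Icosl, the ligand of ICOS, fell by 0.98 in COMB against OAT-1746 (SE 0.19, edgeR adjusted p = 0.0233; -0.69 and 0.1601 without OAT-1746 replicate 2) and the other 4 did not pass. Cd40, which receives T cell help, had 105 and 109 CPM in CTR, 94.1 and 18.0 in OAT-1746, 116 and 156 in anti-PD-1, and 84.6, 137 and 132 in COMB, where OAT-1746 replicate 2 alone was far below the rest. In OAT-1746 against CTR 0 of 5 passed the adjusted edgeR test, with 1 higher at an unadjusted p under 0.05, and 0 without OAT-1746 replicate 2.

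The interferon-γ pathway, the main inducer of Ciita, gave 1 call among 12 genes in COMB against OAT-1746, where 15.8% of all genes were called, and 0 in OAT-1746 against CTR, where 0.00% were, with 1 higher at an unadjusted p under 0.05 and 0 called by DESeq2. The call was Ifng itself (edgeR adjusted p = 0.0425), at the edge of detection: 4 and 3 counts in CTR, 1 and 1 in OAT-1746, 12 and 4 in anti-PD-1, and 6, 12 and 10 in COMB. Only anti-PD-1 and COMB libraries reached the minimum count of the filter, so Ifng was tested through groups in which it was high. Its call is therefore no independent support for a rise in COMB. The summed counts of 28 in COMB and 2 in OAT-1746 gave a ratio of 11.3 after scaling, with a 95% interval of 2.86 to 98.3 that covers counting error only. The adjusted p of Ifng was 0.220 without OAT-1746 replicate 2. Socs1, a feedback inhibitor induced by the pathway, had 34.1 and 18.7 CPM in CTR, 17.4 and 12.1 in OAT-1746, 62.4 and 49.3 in anti-PD-1, and 18.4, 51.3 and 49.3 in COMB. Like the chains, it was lowest in OAT-1746 and low in COMB replicate 1, but it did not pass in COMB against OAT-1746 (1.43 on the log2 scale, SE 0.44, edgeR adjusted p = 0.0560).

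Among 8 inhibitors of class II expression, 0 passed the adjusted edgeR test in OAT-1746 against CTR, with 3 higher at an unadjusted p under 0.05: the IL-10 receptor chain Il10ra and the TGF-β receptors Tgfbr1 and Tgfbr2. Il10ra had 582 and 601 CPM in CTR, 882 and 1026 in OAT-1746, 794 and 736 in anti-PD-1, and 667, 616 and 624 in COMB. It fell by 0.58 in COMB against OAT-1746 (SE 0.14, edgeR adjusted p = 0.0347), the 1 call of the list there. Its value was -0.48 without OAT-1746 replicate 2 (edgeR adjusted p = 0.190), and 1 of the 8 was higher in OAT-1746 than in CTR at an unadjusted p under 0.05. Its highest libraries were those of OAT-1746, and the anti-PD-1 libraries lay between them and the rest.

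Markers of the cell types that the sort could hold were read beside the class II genes. The summed level of 9 microglia markers was 13250 and 20709 CPM in CTR, 27464 and 34685 in OAT-1746, 19534 and 15802 in anti-PD-1, and 24114, 18132 and 17041 in COMB. The OAT-1746 libraries were the highest, and CTR replicate 1, where class II was highest, was the lowest; COMB replicate 1 was the highest and the class II sum the lowest within its group. Against CTR, all 9 were higher in OAT-1746 at an unadjusted p under 0.05, against 16.1% of all genes, with a median log2 fold change of 0.94. None passed the adjusted edgeR test, and DESeq2 called 7 higher, against 8.36% of all genes. In COMB against OAT-1746 all 9 were lower, P2ry12 and Sall1 past the adjusted edgeR test. Without OAT-1746 replicate 2 all 9 were again higher than in CTR, 5 at an unadjusted p under 0.05 (8.10% of all genes), and lower in COMB than in OAT-1746, 2 at that threshold (9.97% of all genes) and 0 past the adjusted test.

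The summed level of 9 monocyte and macrophage markers was 12812 and 11479 CPM in CTR, 8587 and 1734 in OAT-1746, 11510 and 13742 in anti-PD-1, and 9385, 11657 and 12074 in COMB. Its most abundant gene over all libraries was Tgfbi, with 2621 and 366 CPM in the OAT-1746 libraries. The sum of OAT-1746 replicate 2 was far below that of any other library, whereas class II in the same library was close to that of OAT-1746 replicate 1, at 9662 against 11590 CPM. All 9 markers had lower fitted levels in OAT-1746 than in CTR, 4 at an unadjusted p under 0.05 and 0 past the adjusted edgeR test. This depended on OAT-1746 replicate 2, without which 7 were lower, 2 of them at an unadjusted p under 0.05, and 2 were higher, 1 of them (Ly6c2) at that threshold: Ly6c2 and Plac8, with 929 and 663 CPM in OAT-1746 replicate 1 and 39.7 and 63.5 in replicate 2. In COMB against OAT-1746, 8 of the 9 were higher with that library and 5 without it, 2 of them at an unadjusted p under 0.05 in each case, and without it Ly6c2 was lower at that threshold. Of 7 markers of border-associated macrophages, led by Mrc1 on average over all libraries and by Ms4a7 in CTR, whose summed levels lay between 502 and 702 CPM, 2 were lower and 2 higher in OAT-1746 than in CTR at an unadjusted p under 0.05 and 0 passed the adjusted edgeR test, while Clec12a rose in COMB against OAT-1746 by 1.37 (SE 0.37, edgeR adjusted p = 0.0419; 0.93 and 0.223 without OAT-1746 replicate 2). Without that library 0 were higher and 2 lower than in CTR at an unadjusted p under 0.05.

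Dendritic cell markers summed to 1865 and 1326 CPM in CTR, 1299 and 1011 in OAT-1746, 1083 and 1637 in anti-PD-1, and 1280, 1257 and 1330 in COMB. The most abundant on average, Itgax, is also carried by macrophages and activated microglia and had 1431 and 667 CPM in CTR, 404 and 96.4 in OAT-1746, 357 and 1004 in anti-PD-1, and 596, 732 and 785 in COMB. Fscn1, an actin bundling protein, had 712 and 794 CPM in the OAT-1746 libraries. There it was at its highest, as was the microglia marker sum, while Itgax was lower than in CTR. In both OAT-1746 libraries and in anti-PD-1 replicate 1 Fscn1 was the largest part of the dendritic cell sum, which thus joins genes of opposite course. It fell by 0.89 in COMB against OAT-1746 (SE 0.25, edgeR adjusted p = 0.0440), the 1 call among the 12 (-0.82 without OAT-1746 replicate 2, where it was not called). The defining dendritic cell genes were scarce, with 46 to 91 counts of Zbtb46 and 8 to 33 of Xcr1 per library. Of the 12 markers, 4 were lower and 1 higher in OAT-1746 than in CTR at an unadjusted p under 0.05, and 0 passed the adjusted edgeR test. Without OAT-1746 replicate 2, 2 were lower and 2 higher at that unadjusted threshold.

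B cells, which also carry class II, left few counts: the summed level of 9 markers was between 59.3 and 113 CPM, led on average by Cd22 and in OAT-1746 by Bank1. Pax5 had 0 counts in 4 libraries. T cell markers summed to between 11.9 and 26.8 CPM, led on average by Cd4 and in anti-PD-1 by Lck, with Cd3e at 0 in 2 libraries, and neutrophil markers to between 305 and 624 CPM, led on average by Csf3r, with 1 to 18 counts of Ly6g. Csf3r, a growth factor receptor, fell by 0.74 in COMB against OAT-1746 (SE 0.17, edgeR adjusted p = 0.0302; -0.59 and 0.178 without OAT-1746 replicate 2), and 0 B cell, T cell or NK cell markers passed that test there, with 1, 0 and 3 at an unadjusted p under 0.05 and DESeq2 calling 1, 0 and 2. Without OAT-1746 replicate 2 these unadjusted counts were 0, 0 and 0. NK cell markers, led on average by Klrk1 and in anti-PD-1 and COMB by Gzma, summed to 65.1 and 73.8 CPM in CTR, 87.5 and 21.1 in OAT-1746, 268 and 163 in anti-PD-1, and 72.2, 134 and 143 in COMB, a course unlike that of the chains. Of the 6 markers of sorted myeloid cells, which all had counts in every library, 2 were higher and 2 lower in OAT-1746 than in CTR at an unadjusted p under 0.05, and 0 and 0 without OAT-1746 replicate 2. Aif1 rose in COMB against OAT-1746 by 0.81 (SE 0.24, edgeR adjusted p = 0.0477; 0.54 and 0.247 without OAT-1746 replicate 2). The part of cell composition in the class II values was not tested.

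**Figure D4:**
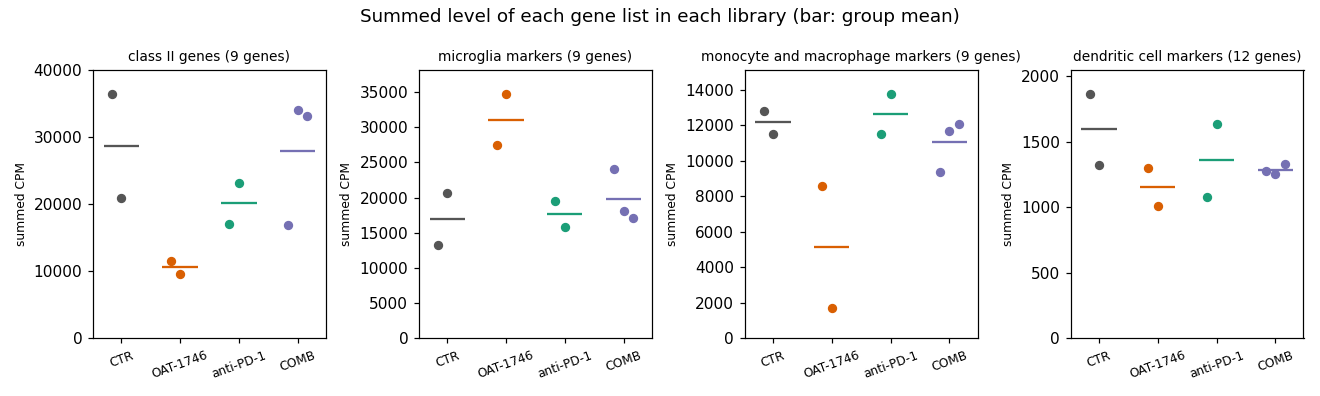
Summed CPM (vertical axes, from 0) of the 9 class II genes and of the microglia, monocyte and macrophage, and dendritic cell marker lists in each library, with 1 point per library and the group mean as a bar. The OAT-1746 libraries have the lowest class II sums, 11590 and 9662 CPM, and the highest microglia marker sums, 27464 and 34685 CPM.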

How the data were processed

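The authors used Trimmomatic on the reads, STAR with mm10 for alignment and Picard for duplicates, and deposited raw counts of read pairs per gene from HTSeq in reverse stranded mode, without normalisation. Of 53801 genes, 53620 were found in GENCODE M21 and 21890 were protein-coding; edgeR's filterByExpr (minimum count 10) left 12538, all 9 members among them. In R 4.3.3, edgeR 4.0.16 fitted TMM-normalised counts of all 9 libraries with 1 mean per group (glmQLFit, glmQLFTest), and p-values were adjusted over all tested genes. Alternatives were DESeq2 1.42.0, limma 3.58.1 voom with quality weights, other scalings, filters and gene sets, robust estimation, a replicate block, fits of only the groups compared, and leaving out each library. Log2 CPM used a prior count of 2. Exon length was the union of annotated exons. The steps were tested on simulated counts. The members and gene lists were chosen with earlier results of these data known. Named genes were the 9 members, genes of the lists, and the 10 tested genes nearest to the profile of H2-Aa, H2-Ab1, H2-Eb1 and Cd74 by Pearson r. Dexi, Brd2 and BC051537 overlap Ciita, H2-DMa and H2-Oa on the opposite strand, which the stranded counting keeps apart. H2-Ea had no gene of that name in the annotation, and March1 and March8 appear under these symbols.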

Additional observations from a re-analysis of the deposited data

How the results depend on the processing

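Signs were kept in 170 of 171 alternative values of the members' log2 fold changes for OAT-1746 against CTR, 164 of 171 for anti-PD-1 against CTR, 143 of 171 for COMB against CTR, 169 of 171 each for COMB against OAT-1746 and against anti-PD-1, and 160 of 162 for the interaction. Scaling by library size alone moved the median of all genes to 0.0974 in OAT-1746 against CTR and to -0.109 in the interaction. With 1 library left in a group, that library was assumed to vary like the other groups. Where values moved, the cause was not tested.

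Members with an adjusted p under 0.05 in OAT-1746 against CTR, 0 in edgeR, numbered 7 in DESeq2 and 3 without a low-count filter (3.65% of all genes), and 0 to 6 when each library was left out; at an unadjusted p they numbered 3 to 8 in these fits, against 8. In COMB against OAT-1746 the 6 members became 0 in the fit of only the groups compared and 0 to 7 when each library was left out. In COMB against anti-PD-1 the 0 members at an unadjusted p became 6 in limma voom, where 15.9% of all genes passed, and 0 to 5 with each library left out. The interaction went from 0 adjusted calls to 7 in DESeq2, 3 in limma voom and 0 to 5 with each library left out.

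With the replicate number as a block, the 6 calls of COMB against OAT-1746 became 0, and in COMB against CTR H2-Aa had -0.0602 and H2-DMa -0.00286. The numbers showed no pairing of the libraries: same-numbered libraries of different groups, less their group means, correlated at r from -0.349 to 0.0999. In a group of 2 libraries these deviations mirror each other, so the values are few and cannot exclude a shared batch or day.

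In limma voom Ciita had 0.0256 in anti-PD-1 against CTR and 0.0198 in COMB against anti-PD-1. In COMB against CTR, limma voom gave 0.149 for H2-Ab1, 0.172 for H2-Eb1, 0.169 for Cd74, 0.0454 for Ciita and 0.120 for H2-DMb2. The log2 fold change of H2-DMb2, COMB against CTR, was 0.000254 in DESeq2, 0.000216 with DESeq2's size factors, 0.0128 by library size only, 0.00615 without a low-count filter and 0.0185 with at least 10 counts in every library.

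Log2 fold changes that turned when each library was left out had these ranges. In OAT-1746 against CTR H2-Oa ran from -0.327 to 0.695. In anti-PD-1 against CTR Cd74 ran from -0.856 to 0.00369, Ciita from -0.564 to 0.690, H2-DMb2 from -0.503 to 0.0738 and H2-Oa from -0.823 to 0.292. In COMB against CTR H2-Aa ran from -0.262 to 0.540, H2-Ab1 from -0.388 to 0.358, H2-Eb1 from -0.401 to 0.423, Cd74 from -0.459 to 0.401 and Ciita from -0.783 to 0.471. H2-DMa ran there from -0.0397 to 0.292, H2-DMb1 from -0.0583 to 0.406 and H2-DMb2 from -0.279 to 0.299. H2-Oa ran from -0.347 to 0.675 in COMB against OAT-1746 and from -0.218 to 0.897 in the interaction, and Ciita from -0.498 to 0.201 in COMB against anti-PD-1.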
